A study of Mus musculus with 4 samples.

Results

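Zfp genes are mouse genes named for the zinc-finger proteins that they encode, in which short loops of protein are held around a zinc ion. Their transcripts were compared between splenic CD4+ T cells that were positive and negative for an Il10 reporter. Members were the gene symbols of the deposited rlog table that begin with Zfp and a number, and there were 208 of them among 9546 symbols. In the count table, 206 were found by symbol. Zfp267 and Zfp268 are listed there under other symbols, and were found because their rlog values, recomputed from the counts, equalled the deposited ones. A mean of 10 or more counts per library was reached by 89 of the 208, and 119 lay below it. The count table held 414 Zfp symbols in all, of which 208 had fewer than 10 counts over the 4 libraries and were not tested (103 of them at 0).

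Cells came from spleens of Tg4 Nr4a3-Tocky Il10-EGFP mice, 24 h after 4 mg/kg of [4Y]-MBP, a modified myelin peptide, was given under the skin. All of the mice carried the Tg4 transgene, which fixes the T cell receptor to a myelin basic protein peptide, the Nr4a3-Tocky reporter, in which a fluorescent Timer protein is made when the receptor signals, and an EGFP reporter at Il10. The populations compared were CD4+ Timer+ Il10-EGFP+ and CD4+ Timer+ Il10-EGFP- T cells, called reporter-positive and reporter-negative below, with 2 libraries of each, so an untreated or antigen-free group was not part of the comparison. The series describes the 2 replicates of a population as separate mice, and p-values here measure the spread between these libraries.

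Most Zfp proteins carry C2H2 fingers, in which pairs of cysteines and histidines hold the zinc and each finger reads a few bases of DNA. Many of them also carry a KRAB domain, which recruits the corepressor TRIM28 and, through it, the histone methyltransferase SETDB1 and heterochromatin proteins. They are best known for silencing retroelements and for guarding imprinted loci. Zfp36, Zfp36l1 and Zfp36l2 differ in kind. Their CCCH fingers bind AU-rich elements in the 3′ ends of messenger RNA and bring in the CCR4-NOT deadenylase, which restrains cytokine and cell-cycle transcripts in activated T cells.

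The libraries held 644679 to 730330 counts, of which 2890 to 3684 fell on Zfp genes. Il10 itself was at 0 in both reporter-negative libraries, and reporter-positive libraries held 29 and 41 counts of it. In TMM-scaled CPM (reads of a gene relative to all reads of its library), the 12 CD4 T cell markers summed to 4603 and 4333 CPM in Il10-EGFP- and 5408 and 4951 CPM in Il10-EGFP+ libraries. The 10 B cell markers summed to 114.0 and 154.7 CPM against 470.6 and 546.8 CPM, and 5 of the 8 tested were called higher in Il10-EGFP+ libraries, Igkc and Jchain among them. The 10 myeloid markers summed to 191.4 and 221.8 CPM against 532.4 and 318.8 CPM, with Cd14 at 0 throughout. Of the 9 tested, 2 (Lyz2 and S100a8) were called higher in Il10-EGFP+ libraries, where 2.35% of all genes were. The 6 CD8 T or NK markers summed to 32.6 and 58.4 CPM against 39.6 and 62.0 CPM, with Ncr1 at 0 throughout. The part of these other cells in the values below was not tested. In bulk RNA, fewer cells that express a gene and less RNA per cell cannot be told apart.

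Few Zfp genes differed between the populations. With edgeR's quasi-likelihood test and a Benjamini-Hochberg adjusted p under 0.05 over all 9608 genes tested, 3 of the 208 were called (1.44%), against 4.09% of all genes. Zfp260 was higher in Il10-EGFP+ T cells, as were 2.35% of all genes. Zfp266 and Zfp979 were lower, as were 1.74% of all genes. All 3 had a mean of 10 or more counts, which makes 3 of 89 members (3.37%) beside 5.46% of all genes at that depth. DESeq2's Wald test called none of the 27 members to which it gave an adjusted p, beside 2.86% of the 4020 genes to which it gave one, and 3 members had an unadjusted p under 0.05 in that test. With edgeR, 17 members (8.17%) had an unadjusted p under 0.05, 5 higher and 12 lower, where 15.5% of all genes did.

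Low counts went with few calls across the whole table. Among all genes, the called share was 0.814% at a mean of 2.5 to 10 counts, 2.02% at 10 to 25, 4.35% at 25 to 50 and 9.39% at 50 or more. Zfp genes numbered 119, 56, 22 and 11 in these ranges, of which 0, 2, 1 and 0 were called. The median standard error of their log2 fold changes was 0.84 in the lowest range and 0.21 in the highest.

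The log2 fold changes of Zfp genes, taken as Il10-EGFP+ over Il10-EGFP-, had a median of -0.11, where the median of all genes tested lay at 2.54e-05. Of the 208 members, 124 (59.6%) lay below 0, against 50% of all genes. The middle of the distribution ran from -0.54 to 0.27 between its quartiles. Among the 89 members with a mean of 10 or more counts, 50 (56.2%) lay below 0, against 51.3% of all genes at that depth. The median moved from -0.068 without Il10-EGFP- replicate 2 to -0.17 without Il10-EGFP+ replicate 1, so it depended on single libraries. In 10 of the 89 members (11.2%) with a mean of 10 or more counts both reporter-positive libraries exceeded both reporter-negative ones after scaling, beside 22.9% of all genes at that depth. In 24 of them (27%) they lay below, beside 24.2% of all genes.

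**Figure D1:**
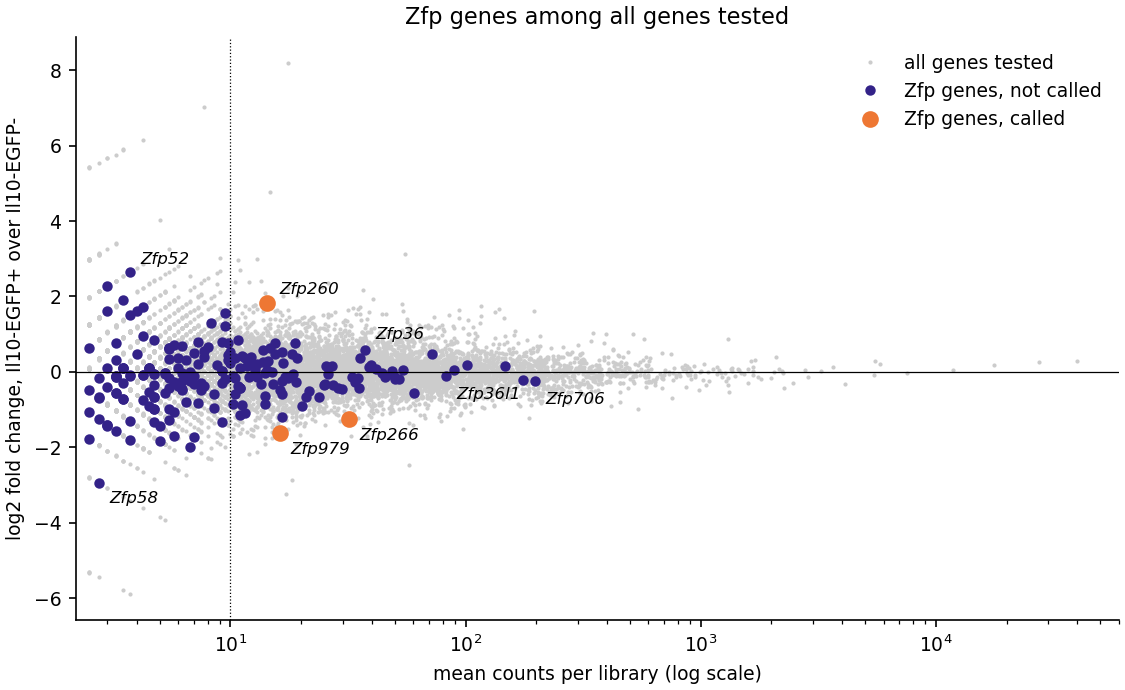
Mean counts per library (x axis, log scale) against the log2 fold change of Il10-EGFP+ over Il10-EGFP- T cells (y axis) for all 9608 genes tested (grey) and the 208 Zfp genes (blue, and orange where called). The dotted line marks a mean of 10 counts, left of which 119 Zfp genes lie, and the 3 called members stand to its right.

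Summed over all members, Zfp transcripts took up 0.504% (95% exact binomial interval 0.488 to 0.521) and 0.482% (0.465 to 0.498) of the counts in the Il10-EGFP- libraries. In the Il10-EGFP+ libraries they took up 0.448% (0.432 to 0.465) and 0.465% (0.449 to 0.481). The Il10-EGFP+ libraries thus had the lower shares, with intervals that cover counting error only. With 2 libraries against 2, an exact two-sided permutation test cannot go below 0.333, so no test was made of this sum.

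Zfp266 encodes a KRAB protein in which a search of the coding sequence found 9 C2H2 fingers. The gene (ENSMUSG00000060510) lies on the minus strand of GRCm38 at chr9:20495068-20521417. It had 49 and 43 counts in reporter-negative and 11 and 25 in reporter-positive libraries. Both reporter-positive libraries fell under both reporter-negative ones, and the mean went from 64.6 ± 2.67 to 26.7 ± 13.2 CPM (SD, n = 2 each). The log2 fold change was -1.25 with a standard error of 0.34 and an adjusted p of 0.0205 in edgeR. The call was lost on leaving out Il10-EGFP- replicate 1 (edgeR adjusted p = 0.0836), and also Il10-EGFP+ replicate 1, the lower of its pair (log2 fold change -0.84, edgeR adjusted p = 0.309). DESeq2 gave an adjusted p of 0.241.

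Zfp979 also encodes a KRAB protein, with 3 fingers found by the same search. The gene (ENSMUSG00000066000) lies on the minus strand at chr4:147611937-147642513. It had 16 and 34 counts in reporter-negative and 10 and 5 in reporter-positive libraries. The groups did not overlap, but the Il10-EGFP- libraries differed from each other by more than Il10-EGFP- replicate 1 did from the Il10-EGFP+ libraries. The log2 fold change was -1.62 with a standard error of 0.49 and an adjusted p of 0.0452 in edgeR. Leaving out Il10-EGFP- replicate 2 gave -0.92 (edgeR adjusted p = 0.612), and leaving out Il10-EGFP+ replicate 2 gave -1.15 (edgeR adjusted p = 0.353). The value is also uncertain because of shared sequence. Of the 50-base sequences in the last 500 bases of its transcripts, 24.6% occur in 11 other genes, most often in Zfp978, which had 0 counts in each library, so reads could have been split between copies or dropped.

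Zfp260 encodes a protein of 12 C2H2 fingers with no KRAB box found, and is known from the heart as a partner of GATA4. The gene (ENSMUSG00000049421) lies on the plus strand at chr7:30094777-30107622. It had 5 and 8 counts in reporter-negative and 17 and 27 in reporter-positive libraries. Both reporter-positive libraries exceeded both reporter-negative ones, and the mean went from 9.23 ± 3.45 to 32.9 ± 8.50 CPM (SD, n = 2 each). The log2 fold change was 1.83 with a standard error of 0.50 and an adjusted p of 0.0226 in edgeR. Leaving out Il10-EGFP- replicate 1 gave an edgeR adjusted p of 0.191, and leaving out Il10-EGFP+ replicate 2 gave 0.287. Neither Zfp260 nor Zfp266 shared any 50-base sequence of its transcript end with another gene.

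The promoters of the 3 called genes are given from RefSeq on GRCm38.p6, from 250 bases before the annotated start to 50 after it, because these are the members whose levels differed. Capitals mark matches, on either strand, to the letters of 10 motifs that were searched. The Zfp266 promoter lies at chr9:20521370-20521669 on the minus strand, that of Zfp979 at chr4:147642459-147642758 on the minus strand and that of Zfp260 at chr7:30094826-30095125 on the plus strand.
Zfp266: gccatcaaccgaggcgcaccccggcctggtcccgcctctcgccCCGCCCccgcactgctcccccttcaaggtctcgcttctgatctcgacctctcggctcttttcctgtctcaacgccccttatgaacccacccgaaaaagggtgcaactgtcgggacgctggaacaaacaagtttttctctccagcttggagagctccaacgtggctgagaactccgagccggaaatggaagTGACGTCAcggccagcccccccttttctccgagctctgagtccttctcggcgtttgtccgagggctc
Zfp979: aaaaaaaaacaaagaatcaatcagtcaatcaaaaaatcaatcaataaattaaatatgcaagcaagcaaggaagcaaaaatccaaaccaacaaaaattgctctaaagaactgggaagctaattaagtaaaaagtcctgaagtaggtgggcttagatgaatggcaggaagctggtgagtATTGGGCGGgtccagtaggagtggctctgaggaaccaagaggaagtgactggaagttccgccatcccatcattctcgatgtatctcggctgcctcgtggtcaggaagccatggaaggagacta
Zfp260: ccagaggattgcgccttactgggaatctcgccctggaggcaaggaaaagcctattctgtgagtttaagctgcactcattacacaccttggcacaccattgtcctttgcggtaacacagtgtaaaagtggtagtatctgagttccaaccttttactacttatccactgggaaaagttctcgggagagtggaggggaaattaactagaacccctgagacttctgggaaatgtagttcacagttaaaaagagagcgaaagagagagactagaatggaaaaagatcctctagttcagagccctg
In the Zfp266 promoter the capitals are a match to the SP/KLF letters GGGCGG and matches on both strands to the CRE letters TGACGT, which overlap. In the Zfp979 promoter they are a match to GGGCGG that overlaps a match to the NF-Y letters CCAAT. The Zfp260 promoter held no match. It had 5 CG dinucleotides, as did that of Zfp979, and that of Zfp266 had 23, where the median was 16 over 201 promoters of members and 22 over 9366 promoters of tested genes. GGGCGG occurred in 51.2% of the promoters of members and 64.6% of those of tested genes, and in 35.7% of all 32851 promoters of the table. CCAAT occurred in 46.8%, 38.2% and 37.4%, and TGACGT in 14.9%, 12.6% and 7.51%, of the same sets. Among 92 promoters of members with a KRAB box, 55.4% held CCAAT and 43.5% held GGGCGG. The ETS letters CCGGAAG occurred in 20.4% of the promoters of members and 20.8% of those of tested genes. The E-box CACGTG occurred in 6.96% and 10.5%, and the letters of NRF1, which are longer, in 10.9% and 11.5%. The AP-1 letters TGANTCA were in 4.98% and 4.69%, the TATA box, read as TATAAA, in 6.47% and 6.8%, and the EGR and ZNF143 letters in 0.995% and 3.98% of the promoters of members.

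None of the 12 Zfp genes within 500 kb of a called member was itself called, beside 4.09% of all genes. Most of the 12 averaged fewer than 10 counts, and 0.814% of all genes in that range were called. Beside Zfp266, Zfp426 had 11 and 7 counts in reporter-negative and 11 and 10 in reporter-positive libraries, and Zfp26 had 15 and 12 against 2 and 12 counts. Beside Zfp260, Zfp566 had 3 and 8 against 7 and 3 counts. Beside Zfp979, Zfp984 had 6 and 3 against 1 and 2 counts (log2 fold change -1.41, standard error 1.11, edgeR adjusted p = 0.610). That value was near the -1.62 of Zfp979, but with so wide an error it did not pass the test.

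The CCCH genes did not pass the test. Zfp36, which encodes tristetraprolin, had 35 and 27 counts in reporter-negative and 30 and 57 in reporter-positive libraries. After scaling, Il10-EGFP+ replicate 1 and Il10-EGFP- replicate 1 both lay at 47.5 CPM, and Il10-EGFP+ replicate 2 stood alone at 82.2 CPM. The log2 fold change was 0.58 with a standard error of 0.30 (edgeR adjusted p = 0.359), and 0.13 without Il10-EGFP+ replicate 2 (edgeR adjusted p = 0.955). Zfp36l1 had 93 and 84 against 73 and 80 counts, which made it one of the 8 most abundant members. Its libraries ran from 115.4 to 126.2 CPM, with a log2 fold change of -0.11, a standard error of 0.21 and an edgeR adjusted p of 0.886. Zfp36l2 had 7 and 12 against 10 and 11 counts, and its log2 fold change of 0.24 had a standard error of 0.56 (edgeR adjusted p = 0.910). In both Zfp36l1 and Zfp36l2 the standard error exceeded the size of the log2 fold change, so no change was shown in either. Zfp36l2 had the wider error, at its lower depth.

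**Figure D2:**
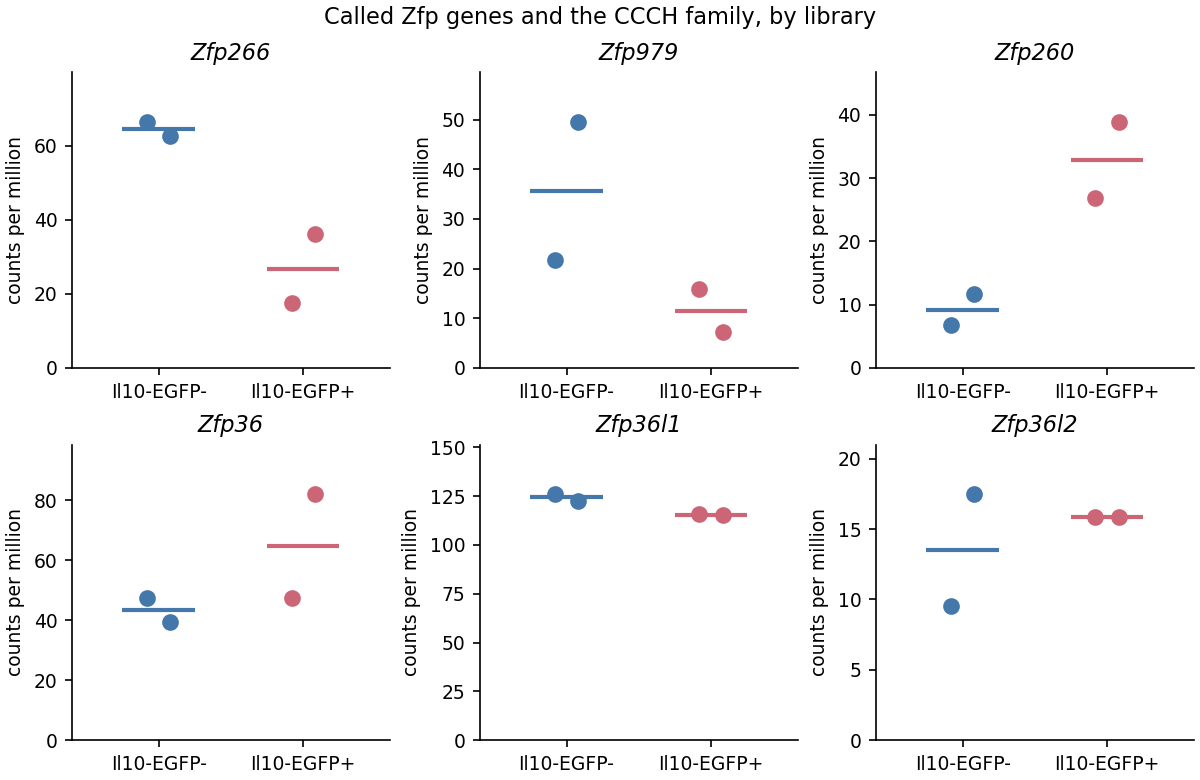
Levels in TMM-scaled CPM (y axis, from 0) of the 3 called members and the 3 CCCH members in each library (points), with the mean of 2 libraries as a line. The libraries of Zfp266, Zfp979 and Zfp260 do not overlap between the populations, whereas in Zfp36 a single Il10-EGFP+ library stands above the other 3.

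The letters that CCCH fingers bind, TATTTAT in the DNA alphabet, occur 3 times in the 3′ untranslated region of each of the 3 CCCH genes, so these transcripts carry the kind of site their own products bind. A site of each is shown with 10 bases on both sides and the match in capitals, beside a site of Pim1 and of Pim3, the survival kinases among the AU-rich transcripts below. On GRCm38 the sites lie at chr7:28376967-28376993 (Zfp36, minus strand), chr12:80108423-80108449 (Zfp36l1, minus), chr17:84184915-84184941 (Zfp36l2, minus), chr17:29495686-29495712 (Pim1, plus) and chr15:88865222-88865248 (Pim3, plus).
Zfp36: gtgggcccttTATTTATgacgacttta
Zfp36l1: tatcaaaacgTATTTATtgccaaacta
Zfp36l2: ctatttaactTATTTATtatcttgtga
Pim1: agttttaatgTATTTATttatttattt
Pim3: cacggtctctTATTTATggtgtgatca
In the whole table the letters were found in the 3′ untranslated regions of 27.5% of 8974 coding genes tested, and in 35.9% of the 206 Zfp members with a coding sequence. Genes with 0, 1, 2 and 3 or more matches were called in 4.15%, 3.83%, 4.41% and 3.72% of cases. Their median log2 fold changes were 0.0015, -2.5e-05, -0.0016 and -0.02.

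Of 25 transcripts listed for the AU-rich elements that the Zfp36 family binds, 16 were tested and 13 of these held the letters. Called were 2 higher (Il10, the gene of the sort, and Pim1) and 2 lower (Pim3 and Myc), which makes 25% of the 16 beside 4.09% of all genes. The call of Il10 was fixed by the sort, so this share is not a result about the list. Myc held 0 matches to the letters in its 3′ untranslated region. The list was chosen with results of these data known. Pim1 had 220 and 198 counts in reporter-negative and 303 and 316 in reporter-positive libraries (log2 fold change 0.67, standard error 0.15, edgeR adjusted p = 0.0024). Pim3 had 73 and 95 against 32 and 29 counts (log2 fold change -1.36, standard error 0.26, edgeR adjusted p = 0.000417). Both kept their call without any single library. Myc had 27 and 19 against 7 and 7 counts (log2 fold change -1.59, edgeR adjusted p = 0.0465), and lost it without each library in turn, at edgeR adjusted p values of 0.071 to 0.303. The growth factor Il2 had 8 and 8 against 1 and 0 counts (log2 fold change -3.61, standard error 1.19, edgeR adjusted p = 0.0724). In all, 11 of the 16 had a log2 fold change above 0 and 5 below it. Tnf at 0.56, Dusp1 at 0.96 and Nfkbia at -0.36 were not called. Nfkbia was called in 2 of 14 alternatives, edgeR with the replicate block (edgeR adjusted p = 0.0158) and limma voom. DESeq2 did not call it with or without the block.

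Downstream of CCCH proteins, none of the 15 CCR4-NOT subunits and BTG/TOB adaptors was called, and their median log2 fold change was 0.0029. The catalytic subunit gene Cnot6 had 228 and 227 against 253 and 281 counts (log2 fold change 0.33, edgeR adjusted p = 0.245), and the scaffold gene Cnot1 had 91 and 71 against 95 and 55 counts. Of 18 genes of decapping and exonucleolytic decay, 1 was called (5.56%), near the 4.09% of all genes. This gene, Exosc7, encodes a subunit of the RNA exosome and was lower in Il10-EGFP+ T cells. It had 288 and 217 against 131 and 123 counts (log2 fold change -0.88, standard error 0.16, edgeR adjusted p = 0.000303). The call held without any single library. Over the 18, 13 had a log2 fold change below 0, at a median of -0.18. The other exosome genes listed were not called. Their log2 fold changes were -0.87 for Exosc4, -0.46 for Exosc3, -0.43 for Dis3, -0.35 for Exosc9, -0.26 for Exosc10, -0.20 for Exosc8 and 0.21 for Exosc2. None of 12 other regulators that bind AU-rich or stem-loop elements was called. The nearest was Elavl1, whose product HuR competes for AU-rich sites, with 104 and 111 against 62 and 72 counts (log2 fold change -0.58, edgeR adjusted p = 0.0997).

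None of the 8 most abundant Zfp genes was called, where 9.39% of all genes with a mean of 50 or more counts were. After scaling, the libraries of Zfp706, Zfp36l1 and Zfp131 (lower) and of Zfp207 and Zfp326 (higher) did not overlap between the populations. Of all genes with a mean of 10 or more counts, 24.2% were lower and 22.9% higher in this way. Because the libraries read the 3′ end of each transcript, a level here is a count of ends in CPM and is not divided by transcript length. The 8 highest members held 28.2% of all Zfp counts and the 20 highest 44.5%. Zfp706 led with 219 and 222 counts in reporter-negative and 154 and 196 in reporter-positive libraries (log2 fold change -0.23, edgeR adjusted p = 0.524), although 23.1% of the sequences of its transcript end also occur in other genes. Zfp106, an RNA-binding protein needed by motor neurons, followed with 214 and 175 against 133 and 180 counts. Zfp91, a ubiquitin ligase of the noncanonical NF-κB pathway, had 138 and 150 against 152 and 146 counts. Zfp207, a spindle protein that carries BUB3 to kinetochores, had 100 and 97 against 92 and 117 counts. Zfp292 had 83 and 99 against 74 and 101 counts. In none of these did the adjusted p fall below 0.5 in edgeR.

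Zfp326 and Zfp131 showed the widest separations among the 8. Zfp326, part of a complex that couples splicing to transcript elongation, had 55 and 71 counts in reporter-negative and 81 in each of the reporter-positive libraries (log2 fold change 0.46, standard error 0.22, edgeR adjusted p = 0.296). Zfp131 had 83 and 65 against 38 and 56 counts (log2 fold change -0.55, standard error 0.24, edgeR adjusted p = 0.232). Their libraries did not overlap, but neither passed the test.

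By role, none of the 9 Zfp genes of ribosomes and RNA handling was called. Zfp598, the ligase that marks collided ribosomes, had 40 and 23 against 21 and 25 counts. Zfp622 and Zfp593, which act in maturation of the large ribosomal subunit, had 55 and 55 against 38 and 52, and 35 and 48 against 24 and 34 counts. Zfp638, which silences retroviral DNA that has not integrated, had 66 and 41 against 38 and 54 counts. Zfp346, which binds double-stranded RNA, had the largest log2 fold change of the list at 1.29, but from 8 and 2 against 11 and 12 counts (standard error 0.65, edgeR adjusted p = 0.331). None of the 4 genes of ubiquitin, SUMO and mitosis was called either, with log2 fold changes from -0.35 to 0.19.

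Of 33 sequence-specific regulators without KRAB, 28 were tested and none was called, at a median log2 fold change of -0.088. Zfp148, a GC-box binding factor, had 61 and 39 against 46 and 49 counts. Zfp217, of the CoREST corepressor, had 42 and 42 against 48 and 34 counts, and Zfp281, a regulator of pluripotency genes, had 52 and 46 against 37 and 46 counts. Zfp410, which activates the gene of the remodeller CHD4, had 9 and 6 against 3 and 2 counts (log2 fold change -1.43, standard error 0.86, edgeR adjusted p = 0.456), while Chd4 had 392 and 388 against 311 and 353 counts. Zfp335, needed for naive T cells, had 2 and 2 against 4 and 7 counts (log2 fold change 1.50, standard error 0.99, edgeR adjusted p = 0.514). Zfp318, which controls IgD splicing in B cells, had 6 and 5 against 4 and 4 counts, beside the higher B cell markers of the Il10-EGFP+ libraries. These counts of fewer than 10 gave standard errors of 0.84 or more.

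**Figure D3:**
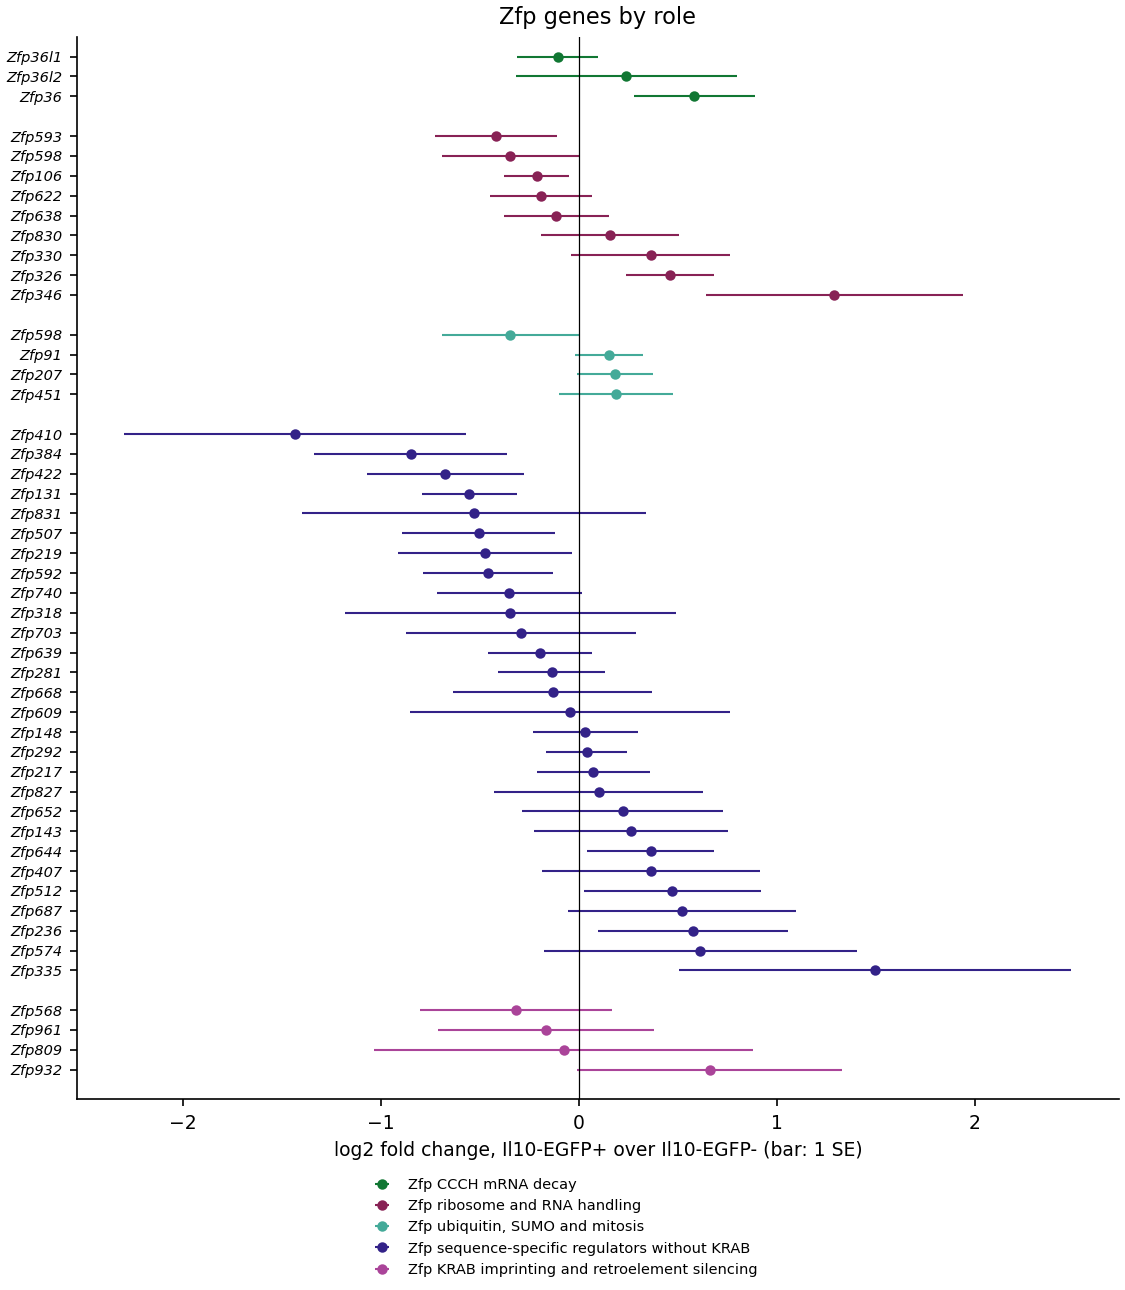
Log2 fold change of Il10-EGFP+ over Il10-EGFP- T cells (x axis, with 1 standard error) of the Zfp genes tested in 5 role lists (colours). Zfp598 stands in 2 of the lists, and none of the genes shown passed the test.

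Other members named were those of largest change among the ones with a mean of 10 or more counts whose libraries did not overlap between the populations. Below Zfp979 and Zfp266 came Zfp770, with 25 and 22 against 10 and 9 counts (log2 fold change -1.19, standard error 0.45, edgeR adjusted p = 0.134). Zfp777 had 15 and 16 against 6 and 7 counts and Zfp65 had 16 and 16 against 6 and 8 counts, with log2 fold changes of -1.14 and -1.08. In the other direction, Zfp472 had 19 and 10 against 23 and 23 counts, Zfp160 had 12 and 12 against 23 and 15 counts, and Zfp101 had 14 and 10 against 17 and 18 counts. Their log2 fold changes were 0.77, 0.77 and 0.64, and none passed the test. The widest values of all members, -2.93 for Zfp58 (7 and 3 against 1 and 0 counts) and 2.64 for Zfp52 (1 and 1 against 4 and 9 counts), came from means under 4 counts per library.

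A KRAB box was found in 97 of the 206 members whose coding sequence could be read, and in 109 it was not. KRAB members were the scarcer transcripts. Their median was 6 counts per library and 22 of the 97 (22.7%) reached a mean of 10, against a median of 12.2 counts and 67 of 109 (61.5%) without a KRAB box. Of the KRAB members, 63 (64.9%) had a log2 fold change below 0, at a median of -0.15. Of the others, 59 (54.1%) lay below 0, at a median of -0.057. Summed, KRAB members had 826 and 784 counts in reporter-negative and 606 and 694 in reporter-positive libraries, and members without a KRAB box had 2850 and 2507 against 2277 and 2555 counts. Both called genes of lower level had a KRAB box, and the called gene of higher level had none. The difference between these classes was not tested.

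**Figure D4:**
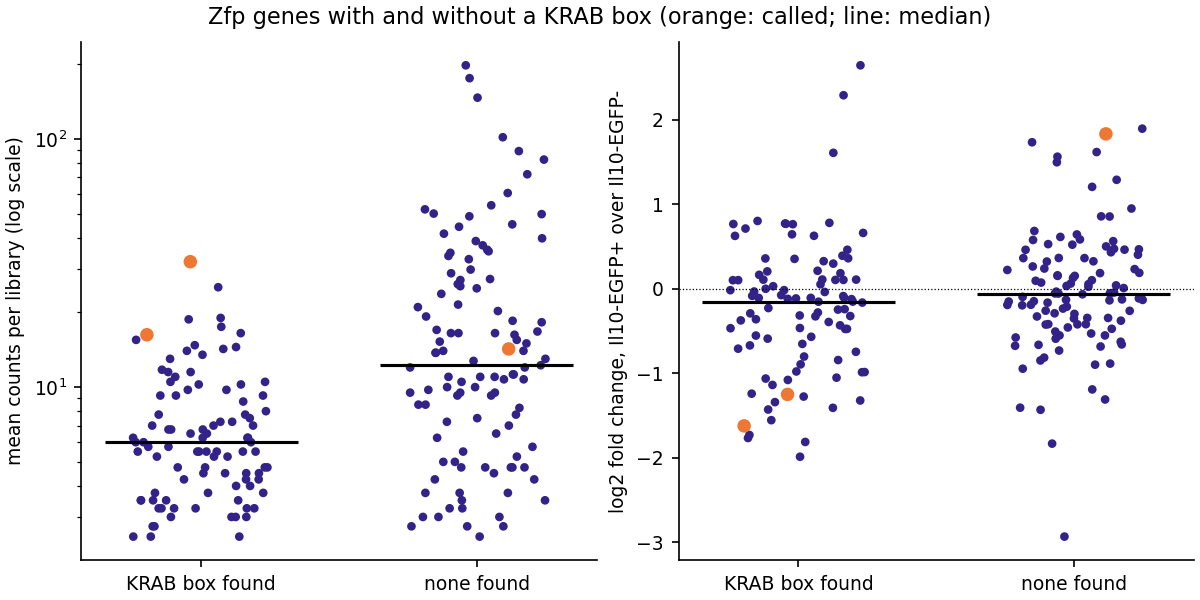
Mean counts per library (left, log scale) and log2 fold change of Il10-EGFP+ over Il10-EGFP- T cells (right) of 97 members with and 109 without a KRAB box, with medians as lines and the called members in orange. The KRAB members lie lower in counts, with medians of 6 and 12.2, while the fold changes of the classes overlap throughout.

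KRAB genes with a known place in imprinting or retroelement silencing were near the limit of the counts. Of 8 listed, 4 were tested and none was called. Zfp57, a guardian of imprints, had 0 counts in every library, which allows up to 3 counts in each, and Zfp445, which shares that role, had 1, 3, 2 and 2. Zfp568, which represses a placental promoter of Igf2, had 17 and 14 against 15 and 8 counts. Zfp809, which silences murine leukaemia proviruses, had 7 and 2 against 0 and 8 counts, and Zfp932, a repressor of endogenous retroviruses, had 8 and 5 against 16 and 3 counts. In both of these the replicates of a population lay further apart than the populations.

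Of the proteins through which KRAB zinc fingers act, 15 of 16 listed were tested and none was called, beside 4.09% of all genes. In edgeR, 8 (53.3%) had an unadjusted p under 0.05, where 15.5% of all genes did. These shares are not matched for depth, as the partners had a median of 130 counts per library and all genes 21.25. With the replicate number as a block, which the labels do not tie to a mouse, edgeR called 3 of these partners, all lower. They were Trim28 (edgeR adjusted p = 0.0373), Mphosph8 (edgeR adjusted p = 0.0299) and Hdac2 (edgeR adjusted p = 0.0246). That fit called 5.83% of all genes. DESeq2 with the same block called 0 of the 11 partners to which it gave an adjusted p, and 0.416% of all genes. The values that follow are without the block. Trim28, the corepressor that KRAB domains bind, had 285 and 225 counts in reporter-negative and 185 and 163 in reporter-positive libraries. Its libraries did not overlap, and its log2 fold change was -0.44 with a standard error of 0.16 (edgeR adjusted p = 0.105). Setdb1, the methyltransferase of this pathway, had 33 and 27 against 12 and 20 counts (log2 fold change -0.80, edgeR adjusted p = 0.279). Its cofactor Atf7ip had 54 and 42 against 70 and 73 counts (log2 fold change 0.68, edgeR adjusted p = 0.0989). The HUSH genes Mphosph8 and Pphln1 had 302 and 299 against 182 and 237, and 89 and 86 against 51 and 62 counts (edgeR adjusted p = 0.1 and 0.199). Hdac2 had 149 and 169 against 92 and 110 counts (log2 fold change -0.56, edgeR adjusted p = 0.0674). Cbx5 and Dnmt1, for heterochromatin protein 1 alpha and the maintenance DNA methyltransferase, had 349 and 331 against 356 and 437, and 191 and 181 against 197 and 257 counts.

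**Figure D5:**
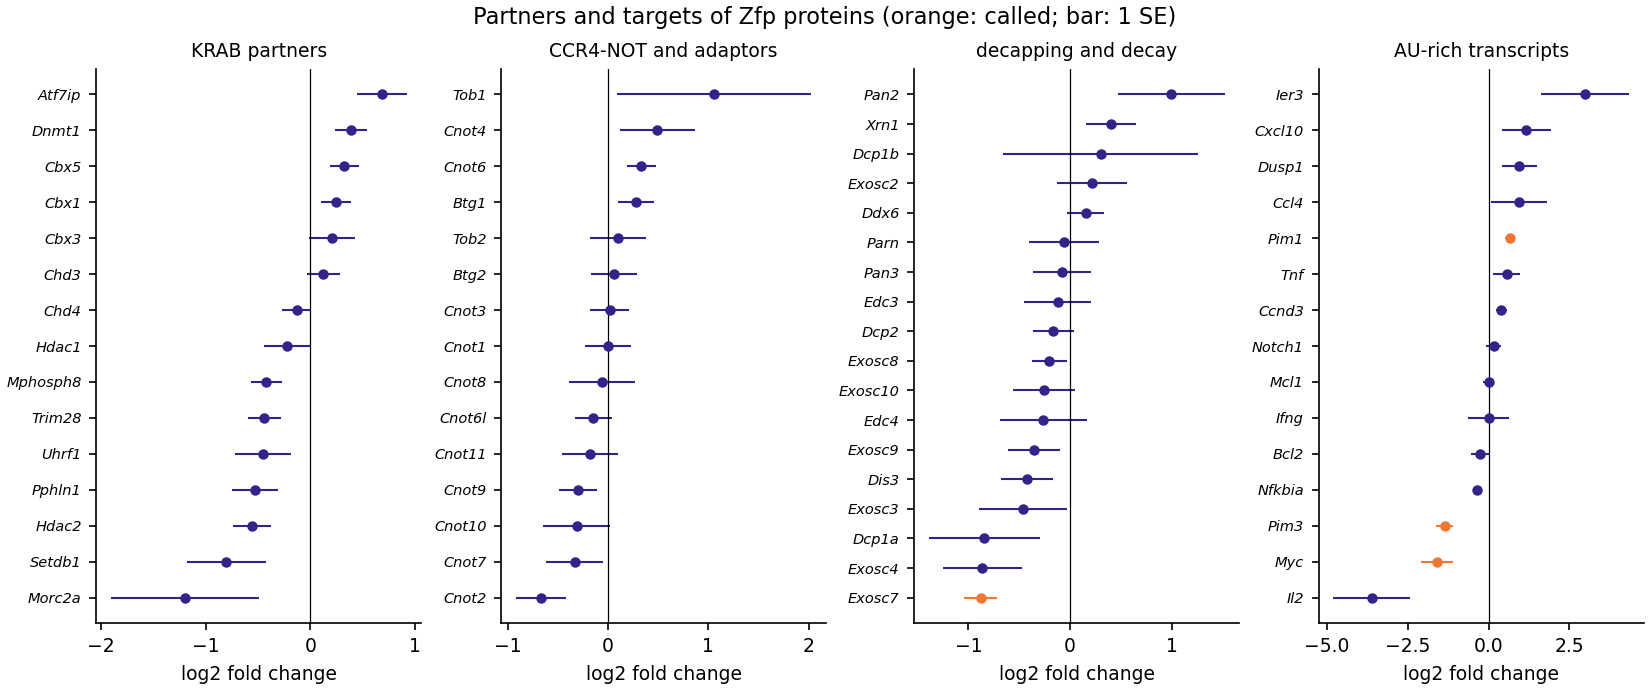
Log2 fold change of Il10-EGFP+ over Il10-EGFP- T cells (x axes, which differ in range, with 1 standard error) of tested genes in 4 lists of partners and targets of Zfp proteins, with called genes in orange and Il10 left out. Called genes are Exosc7 among decay genes and Pim1, Pim3 and Myc among AU-rich transcripts, and none among the KRAB partners or CCR4-NOT genes.

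Members with shared sequence need care. Over 10% of the sequences of the transcript end occurred in another gene in 29 members, and any at all in 91. Exons of 56 members overlap a gene on the opposite strand, and the strand setting of the counting is not given in the sources used here. Of the 208 members, 46 lie on chromosome 7, 28 on chromosome 17 and 18 on chromosome 13. The median log2 fold changes there were -0.085, 0.077 and -0.14.

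The other zinc-finger families named by symbol held no called gene in edgeR either. None of 32 Zbtb genes, 11 Zkscan and Zscan genes or 13 Zc3h genes passed, with 7 (21.9%), 0 and 2 (15.4%) at an unadjusted p under 0.05 beside 15.5% of all genes. Their medians were -0.054, -0.17 and 0.14 beside -0.11 for the Zfp genes.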

How the data were processed

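Libraries were made from 5 ng of RNA with the QuantSeq 3′ FWD kit, and the submitters' processing notes name STAR 2.5.2a, HTSeq 0.6.0 and GRCm38. The methods state that molecular identifiers served to assess PCR duplicates and to remove amplification bias. Whether the deposited counts were collapsed on them, the strand option and the annotation release are not given in the sources used here. A further replicate pair, which the methods describe as removed as an outlier, was not analysed here. The authors deposited raw counts per Ensembl gene and rlog values on a log2 scale.

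Genes whose counts reached 10 in total were fitted here with edgeR 4.0.16 in R 4.3.3 (TMM factors, glmQLFit and glmQLFTest with the legacy fit, no covariates), with Benjamini-Hochberg adjustment over all genes tested. Standard errors are the absolute log2 fold change over the root of F, and CPM are TMM-scaled. Alternatives were DESeq2 1.42.0, limma 3.58.1, other filters and scalings, a replicate block and leaving out each library. Coordinates, coding sequences and transcript ends came from GENCODE M21 on GRCm38. A C2H2 finger was counted where 2 to 4 residues stood between cysteines, 12 between the pairs and 3 to 5 between histidines. Replicates of a population differed beyond sampling noise (chi-square per degree of freedom 2.15 in Il10-EGFP- and 1.97 in Il10-EGFP+).

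Members and gene lists were chosen with earlier results of these data known. Genes named with values were the CCCH genes, every called member, the 8 highest members, the 5 largest changes in each direction among non-overlapping members averaging 10 counts or more, members of the role lists, and up to 5 of each other list (called first, then by counts). Setdb1, Atf7ip, Pphln1, Hdac2, Dnmt1, Exosc2, Exosc3, Exosc4, Exosc9, Exosc10, Dis3, Cnot1, Il2, Tnf, Dusp1, Zfp58, Zfp52, the neighbours of called members and the markers named were chosen after their values were seen.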

Additional observations from a re-analysis of the deposited data

How the results depend on the processing

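The 3 called Zfp genes were called again with edgeR under the other filters, scalings and fit. limma voom called 2 and dropped Zfp979. DESeq2 called 0, limma on the deposited rlog values called 0, and DESeq2 with a replicate block called 0, with 3, 8 and 2 members at an unadjusted p under 0.05. DESeq2 gave 181 members no adjusted p, and 201 with the block. Leaving out each library in turn left 1 to 2 calls, each with 1 library assumed to vary like the others, and none of the 3 genes kept its call in every case. No CCCH gene was called under an alternative that gave it an adjusted p, and DESeq2 gave none to Zfp36l2, nor to Zfp36 with the block. The median log2 fold change of Zfp genes was -0.0084 on the rlog values, which shrink low counts, and -0.17 to -0.068 with a library left out. Leaving out the 29 members with shared transcript ends, an alternative chosen after seeing the data, left 2 calls and a median of -0.12.

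The methods speak of a replicate pair that was removed, but the labels do not tie replicate numbers to mice. Deviations of same-numbered libraries correlated at 0.0324 over 4965 genes. This value cannot settle the pairing, because part of each deviation is counting noise. edgeR with the replicate block called the same 3 Zfp genes (median -0.13) and 560 genes in all against 393. It called 3 KRAB partners against 0, and 5 AU-rich transcripts against 4. DESeq2 with the block called 0 of the 11 KRAB partners to which it gave an adjusted p. DESeq2 called 115 genes in all, limma on rlog values 195, and edgeR with a library left out 201 to 264. Of the 4 AU-rich transcripts that edgeR called, DESeq2 gave 2 an adjusted p and called both. With the block it gave 1 an adjusted p (Pim1, 0.0989), and Exosc7 stood at 0.0507. The cause of these differences was not tested. Depth also limits the comparison, as 119 of 208 members had a mean under 10 counts.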
